A study of Arabidopsis thaliana with 8 samples.

Results

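Inflorescences of an *Arabidopsis thaliana* line carrying a T-DNA insertion in AT3G47620, the gene of the transcription factor TCP14, were compared with control inflorescences. The comparison rests on 4 of the 8 Affymetrix ATH1 arrays of the study: the 2 arrays labelled T13 (the insertion line) and the 2 labelled CON (no modification given). Every group was of accession Ws, raised on compost under glass at 18 °C and 16 h light days, and sampled at growth stage 6.0, when the first flowers open. The design text gives 10 pooled plants. The other 4 arrays, 2 of T14 (an insertion in AT1G69690, the gene of TCP15) and 2 of HET (heterozygous for both insertions), entered the estimate of the spread and are given beside the T13 values. T13 is 1 line, and the zygosity of its insertion is not given, so an effect of the insertion and other differences of that line cannot be told apart. The labels leave unsaid whether paired arrays hold RNA of different pools, so p-values reflect only how far these arrays differ, and that may be technical.

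TCP proteins are plant transcription factors named after TEOSINTE BRANCHED, CYCLOIDEA and PCF. TCP14 and TCP15 belong to class I of the family and are known for roles in cell proliferation in young internodes, leaves and flowers, in seed germination, and in responses to gibberellin and cytokinin. An inflorescence at this stage holds meristem, flower buds of every age and the first open flowers. Its stamens carry pollen at all stages of maturation, so transcripts of mature pollen form part of the RNA. Mature pollen stores a distinct set of transcripts for the growth of the pollen tube: enzymes that remodel the pectin wall of the tube, secreted peptides and their receptors, kinases, calcium-binding proteins and regulators of actin. In whole inflorescences, fewer cells of a type and less RNA per cell cannot be told apart.

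Each value is a deposited intensity, the brightness of 1 probe set on 1 array on a linear scale. Array medians lay between 51.35 and 59.5, and array means, trimmed by 2% at either end, were 100. Spearman rank correlations over all probe sets were 0.958 between the CON arrays, 0.953 between the T13 arrays and 0.941 to 0.954 between a CON and a T13 array. The GAPDH control ratio (5' over 3' probe set), a measure of how complete the labelled RNA was, was 0.086 and 0.129 in CON and 0.076 and 0.0639 in T13. Scanner background averaged 112.87 and 87.36 in CON and 98.49 and 111.86 in T13. The part of RNA completeness and background in the results was examined only by adding each as a covariate. No probe set with TCP14 as its 1 gene was found, and the T13 label is therefore unchecked by expression. TCP15, the close relative, had intensities of 198.2 and 244.0 in CON and 205.9 and 204.1 in T13, a log2 difference of -0.09 (SE 0.2) that did not pass (limma adjusted p = 0.944).

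The probe sets that passed the test in T13 against CON were nearly all lower in T13. The named genes that fell included pectin enzymes, RALF peptides, an actin-bundling LIM protein, kinases and secreted proteins of families known from pollen and anthers. Of 15044 probe sets kept, 88 fell in T13 (0.585%) and 1 rose (0.00665%), 0.592% in either direction, at an adjusted p under 0.05 in a limma fit of all 8 arrays. At an unadjusted p under 0.05 the directions were nearer to balance, with 486 lower and 415 higher, where chance gives 752 in all. The intensities of the groups did not overlap for 89 of these 89 probe sets, against 37.4% of all kept probe sets. With 2 arrays a group, a call nearly requires this, so the count describes the called probe sets and tests nothing. The median log2 difference over all kept probe sets was 0.05. The count of 89 rests on few arrays: it was 37 without CON replicate 1, 16 without CON replicate 2, 44 without T13 replicate 1 and 34 without T13 replicate 2. With the GAPDH ratio as a covariate 60 passed, and 70 did so once scanner background was added instead. Of the 55 falls with 1 gene, 23 passed without CON replicate 1, 9 without CON replicate 2, 25 without T13 replicate 1 and 18 without T13 replicate 2, and the sign turned for 0 of them. AT1G10770, AT3G26110, AT5G47000, AT2G02720, AT5G48140 and AT1G78460 passed in each of the 19 alternatives run. Of the 88 falls, 55 were of probe sets with 1 gene, 4 of probe sets that read several genes and 29 of probe sets unnamed here.

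**Figure D1:**
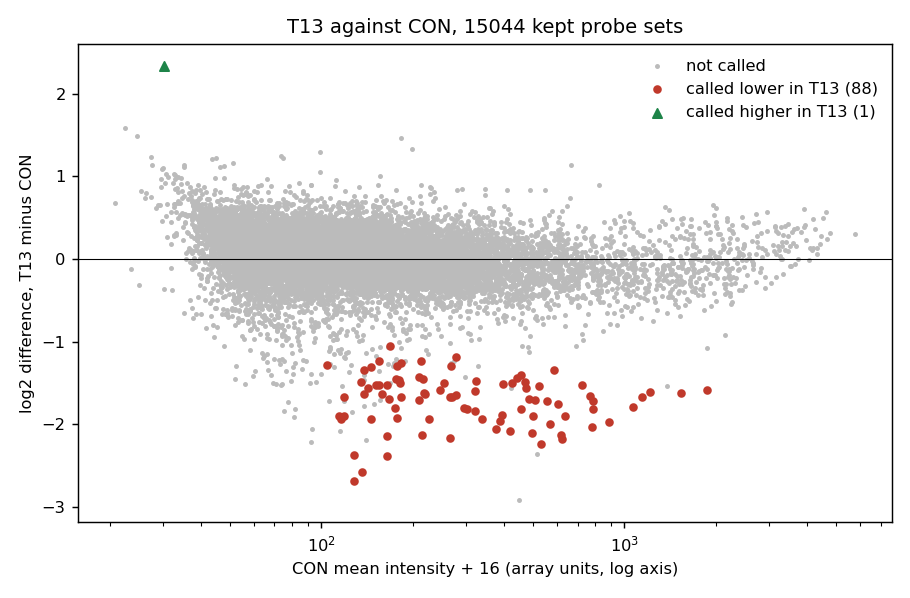
Log2 difference of T13 from CON (vertical axis) against the CON mean intensity plus 16 (horizontal axis, log scale) for the 15044 kept probe sets, each point 1 probe set. The 88 probe sets that fell lie between -2.69 and -1.06 and span CON means from 88.2 to 1854, and the 1 that rose had a CON mean of 14.2.

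The falls were of a similar relative size in both T13 arrays. Expressed as a percentage of the CON mean of the same probe set, the 88 lay at a median of 27.07% on T13 replicate 1 (2.32% to 41.3%) and 26.99% on T13 replicate 2 (3.15% to 47.9%). T13 replicate 1 was the lower of the pair for 40 of the 88, and the pair lay within 1.5-fold of each other for 76. In 87 of 88 probe sets both T13 arrays were below 50% of the lower CON array. Since low values in T13 chose these probe sets, the percentages describe them and test nothing. Split by CON mean, the dimmest 30 probe sets (88.2 to 167) had a T13 median of 25.1% of CON, the middle 29 (167 to 408) of 26.6%, and the brightest 29 (425 to 1854) of 28.4%. All 18 probe sets that were under the 40th percentile of both T13 arrays, and so passed the filter only through the other groups, were among the dimmest 30. Their T13 values are near the low end of the arrays and give no exact size of the fall. Those with 1 gene were AT5G07420, AT3G17060, AT1G52680, AT1G04470, scpl38, AT2G02720, AT3G20530, AT3G26860, AT1G19500, AT4G18395, AT3G03430, RALFL25, AT59 and AT2G26450. The log2 values and ranks given for these genes below carry that limit.

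On the arrays of the other lines, which share the CON arrays as reference, the same 88 probe sets had medians of 65.1% and 97.5% of the CON mean on the T14 arrays and of 15.8% and 18.8% on the HET arrays. The T14 mean lay between the T13 and the CON mean for 79 of the 88 and under 50% of CON for 4. The HET mean was over 50% of CON for 1 probe set, that of AT5G55070.

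**Figure D2:**
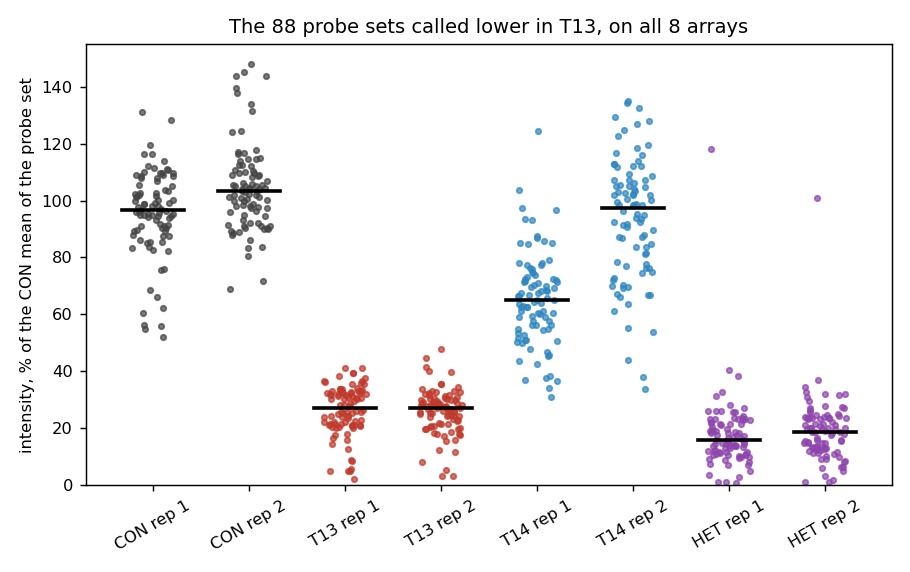
Intensity of each of the 88 probe sets that fell in T13 as a percentage of its CON mean (vertical axis) on the 8 arrays (horizontal axis), each point 1 probe set and each black line the median. The T13 medians are 27.07% and 26.99%, those of T14 65.1% and 97.5%, and those of HET 15.8% and 18.8%; CON is the reference and scatters around 100 by construction.

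The 55 genes that fell were grouped by what they encode, after their values had been seen, and 44 were given a role. Kept genes of the same families that did not pass were not counted. The size of a group is thus not a share to set beside the 0.585% called lower over all kept probe sets. The largest group was that of pectin-modifying enzymes and the family of their inhibitors, with 16 genes, a median log2 change of -1.705 and a T13 median of 26.35% of CON. It held pectinesterases, which remove methyl groups from pectin, polygalacturonases and pectate lyases, which cut it, and members of the invertase and pectinesterase inhibitor family. AT5G07420 had 66.1 and 175.0 in CON against 6.2 and 3.8 in T13, and AT3G17060 had 141.2 and 156.0 against 7.2 and 26.7. These pectinesterases had the largest changes of the 55 (log2 -2.58, SE 0.367, and -2.39, SE 0.276, with limma adjusted p = 0.00814 and 0.00412), and the CON arrays of AT5G07420 lay far apart. The T13 values of both genes are near the low end of the arrays, so these sizes and their rank are not exact.

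The polygalacturonase AT3G07820 had 753.0 and 782.3 in CON and 185.8 and 164.5 in T13 (log2 -2.04), and AT5G48140 had 524.9 and 439.4 against 116.6 and 116.6 (log2 -1.90). The pectate lyase AT2G02720 had 160.5 and 162.9 against 33.1 and 28.4 (log2 -1.93). Of the inhibitor family, AT1G10770 had 572.8 and 627.4 against 126.6 and 122.1 (log2 -2.13), AT4G02250 had 280.8 and 331.8 against 66.3 and 81.4 (log2 -1.84), and AT2G47050 had 398.4 and 482.1 against 97.8 and 129.2 (log2 -1.82). Neither group of arrays came near the other in any of these 6 genes (limma adjusted p from 0.004 to 0.0054). Enzymes and members of the inhibitor family thus fell side by side. The remaining 8 were the pectate lyases AT3G01270, AT5G15110 and AT59, the pectinesterases AT5G07430, AT3G05610 and AT2G26450, and APPB1 and AT5G50030 of the inhibitor family, with log2 changes from -1.59 to -1.35.

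Beyond pectin, 5 enzymes that act on the wall, on sugars or by oxidation fell, to a median of 31.75% of CON. EXPB5, a beta-expansin, is of a family that loosens cell walls. It had 181.9 and 204.6 in CON and 62.9 and 59.8 in T13, which is -1.43 on the log2 scale (SE 0.189, limma adjusted p = 0.00553). The peroxidase AT5G47000 had 339.6 and 306.9 against 82.2 and 64.0 (log2 -1.93, SE 0.212, limma adjusted p = 0.004) and fell furthest of the 5. AT5G19580, of the glyoxal oxidase family, had 761.8 and 743.3 against 237.8 and 218.3 (log2 -1.66). The glycosyl hydrolase AT3G62710 had 526.7 and 377.6 against 164.3 and 135.4 (log2 -1.48). AT5G15140, of the aldose epimerase family, had 218.0 and 304.6 against 93.1 and 116.9, and at -1.19 on the log2 scale (limma adjusted p = 0.0273) it fell least of the 55.

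A further 5 genes encode secreted proteins of families known from pollen, anthers or the extracellular space, and these reached a median of 28.4% of CON. AT5G45880 belongs to the Ole e 1 family, named after the main allergen of olive pollen. It was the brightest of all 55 genes, at 1181.9 and 1208.8 in CON and 429.0 and 337.6 in T13 (log2 -1.61, SE 0.27, limma adjusted p = 0.02). A second member of that family, AT1G29140, had 168.2 and 240.4 against 52.7 and 55.3 (log2 -1.63, SE 0.203, limma adjusted p = 0.00451). AT3G26110, of an anther-specific protein family, had 337.2 and 385.8 against 60.3 and 90.4 (log2 -2.06, SE 0.236, limma adjusted p = 0.004) and was the largest change of the 5. AT5G26700, of the cupin superfamily, changed by -1.71 and AT4G25780, of the CAP family of secreted proteins, by -1.31 on the log2 scale.

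Signal peptides formed a group of 3. RALF peptides are secreted and act through receptor kinases of the FERONIA family, which in the pollen tube include ANX1 and ANX2. The neighbouring genes RALFL25 and RALFL26 had 124.1 and 129.5 in CON against 30.4 and 34.4 in T13, and 231.6 and 245.3 against 80.5 and 68.1 (log2 -1.56 and -1.50, limma adjusted p = 0.0109 and 0.00913). LCR72, a defensin-like cysteine-rich peptide also named PDF2.6, had 123.2 and 174.4 against 35.5 and 45.6 (log2 -1.53, limma adjusted p = 0.0151). T13 thus held 25.6%, 31.2% and 27.3% of the CON mean of these genes. Both T13 values of RALFL25 are near the low end of the arrays, so its share is not exact. Of 31 kept genes whose symbol or synonyms name a signal peptide or cysteine-rich protein, these 3 fell and 0 rose (limma, at 0.585% lower over all kept probe sets), and the list's median log2 difference was 0.00.

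**Figure D3:**
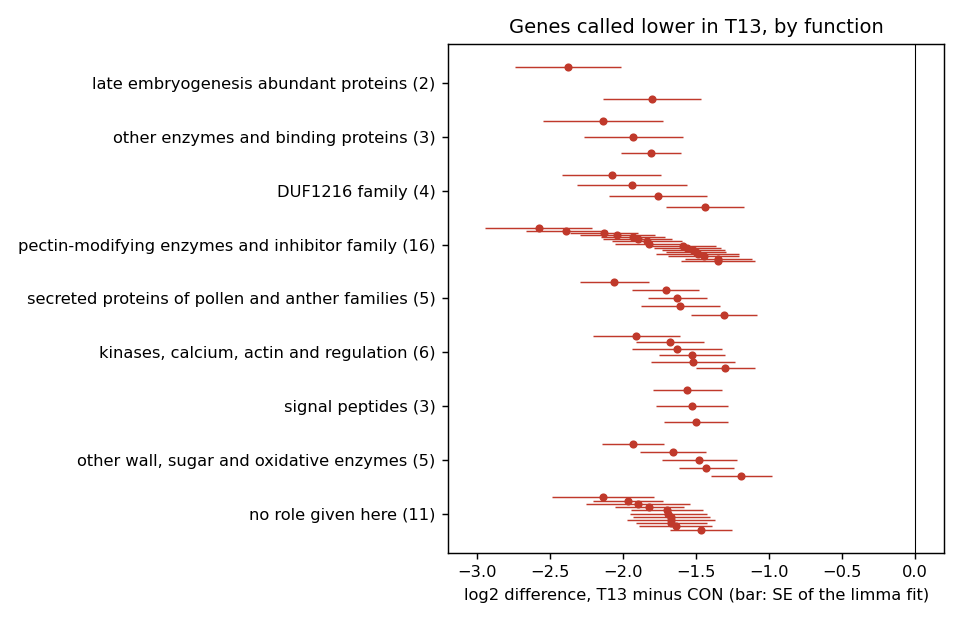
Log2 difference of T13 from CON (horizontal axis) for each of the 55 named genes that fell, grouped by function (vertical axis, number of genes in brackets), with the SE of the limma fit as bars. The groups were made after the values were seen; their medians run from -1.48 for other wall, sugar and oxidative enzymes to -2.09 for the 2 late embryogenesis abundant proteins, and single genes from -2.58 to -1.19.

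Signalling and cytoskeletal genes made up a group of 6, at a median of 27.4% of CON. PLIM2a, a LIM protein that binds actin filaments into bundles and is expressed in pollen, had 274.6 and 234.5 in CON and 54.9 and 84.6 in T13 (log2 -1.68, SE 0.232, limma adjusted p = 0.00742). The protein kinase AT3G20530 had 106.8 and 89.5 against 8.5 and 21.6 (log2 -1.91, SE 0.297, limma adjusted p = 0.0121). The shaggy-like kinase AT3G61160 had 555.1 and 457.1 against 166.0 and 160.9 (log2 -1.53, SE 0.228, limma adjusted p = 0.00966). Both kinases thus fell, the first to near the low end of the arrays. The EF-hand calcium-binding protein AT3G03430 had 76.5 and 168.9 against 28.0 and 24.3 (log2 -1.63, limma adjusted p = 0.0396). AT1G35490, of the bZIP family of transcription factors, had 151.0 and 126.6 against 31.2 and 45.1 (log2 -1.52, limma adjusted p = 0.0401). AT3G54800, with PH and START domains that bind lipids, had 154.9 and 167.9 against 54.7 and 57.3 (log2 -1.30, limma adjusted p = 0.0114).

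Of the DUF1216 family, a family of Brassicaceae proteins of unknown function, 4 genes fell too. The function groups were made only from the 55 genes that fell, so members of the family that did not pass were not counted. AT3G28830 had 304.3 and 499.5 in CON and 70.6 and 90.3 in T13 (log2 -2.08, limma adjusted p = 0.0159). AT5G61720 had 109.7 and 311.8 against 27.2 and 48.4 (log2 -1.94, limma adjusted p = 0.0478). AT3G28980 had 354.5 and 820.4 against 152.1 and 144.7 (log2 -1.76, limma adjusted p = 0.0444), and AT3G28790 had 291.2 and 557.8 against 133.5 and 143.5 (log2 -1.44, limma adjusted p = 0.0356). CON replicate 2 was the higher CON array in all 4. Of 19 alternatives, AT3G28830 passed in 14, AT3G28790 in 10, AT3G28980 in 8 and AT5G61720 in 5, the fewest of the 55. Members of this family that lie near each other on chromosome 3 may be similar enough to share probe signal, which was not tested. Late embryogenesis abundant (LEA) proteins protect cells that dry out, as maturing pollen and seeds do. Of these, AT1G52680 had 74.0 and 150.1 against 6.2 and 9.0 (log2 -2.38, limma adjusted p = 0.0114), and AT5G38760 had 156.5 and 401.7 against 72.1 and 51.0 (log2 -1.80, limma adjusted p = 0.0379).

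In 7 of the 88 probe sets CON replicate 2 was at least 2-fold of CON replicate 1, against 2.68% of all kept probe sets. The 6 of these with 1 gene were AT1G52680, AT5G38760, AT3G28980, AT5G61720, AT3G03430 and AT5G07420. The T14 median of the 7 was 49.5% of CON (32.3% to 74.2%), against 82.4% for the other 81. A high CON replicate 2 raises the CON mean these shares are taken of, so a lower share is partly built into the choice. For AT5G38760 the T14 arrays read 86.1 and 94.3, below both CON arrays. Without CON replicate 2 the log2 difference was -1.93 for AT1G52680, -1.17 for AT5G38760 and -1.17 for AT3G28980. It was -1.25 for AT5G61720, -1.14 for AT3G03430 and -1.97 for AT5G07420. Without CON replicate 1 these 6 genes stood at -2.82, -2.44, -2.35, -2.64, -2.13 and -3.19, in the same order. The size of these falls thus depends on which CON array is used. Since a high CON replicate 2 chose these genes, smaller falls without that array are built into the choice. Either fit leaves 1 CON array, so only sizes are given here.

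Of the other enzymes, scpl38, a serine carboxypeptidase-like protein, had 110.6 and 90.2 in CON against 5.0 and 27.9 in T13 (log2 -1.93, limma adjusted p = 0.0268). AT1G78460, of the SOUL family of heme-binding proteins, had 296.7 and 274.7 against 58.1 and 83.1 (log2 -1.81, limma adjusted p = 0.004). AT5G55070, a subunit of the mitochondrial 2-oxoglutarate dehydrogenase complex, stood apart from the rest in its HET arrays. It had 189.2 and 207.3 in CON, 72.6 and 10.8 in T13, and 234.3 and 200.2 in HET (log2 -2.14 for T13 against CON, limma adjusted p = 0.0452). Its T13 arrays lay far apart, and its HET arrays lay with CON. Without T13 replicate 2 the log2 difference was -1.27 (limma adjusted p = 0.0906). Leaving out either CON array (limma adjusted p = 0.256 and 0.259) or either HET array (0.113 and 0.116) ended the call too, and it passed in 6 of 19 alternatives.

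A role is not given here for 11 genes that fell. AT1G04470 had 132.8 and 164.1 in CON against 13.3 and 30.8 in T13 (log2 -2.14, limma adjusted p = 0.0168), and AT5G39880 had 356.3 and 387.5 against 74.7 and 92.3 (log2 -1.97, limma adjusted p = 0.00451). AT3G26860 had 85.8 and 119.5 against 18.6 and 12.7 (log2 -1.90, limma adjusted p = 0.0395), and AT3G28750 had 695.0 and 842.9 against 215.5 and 195.0 (log2 -1.82, limma adjusted p = 0.00547). The T13 arrays of all 4 lay far below both CON arrays. The other 7, AT3G01240, AT5G54095, AT3G62640, AT1G19500, AT5G50830, AT4G18395 and AT4G27580, changed by -1.70 to -1.47.

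**Figure D4:**
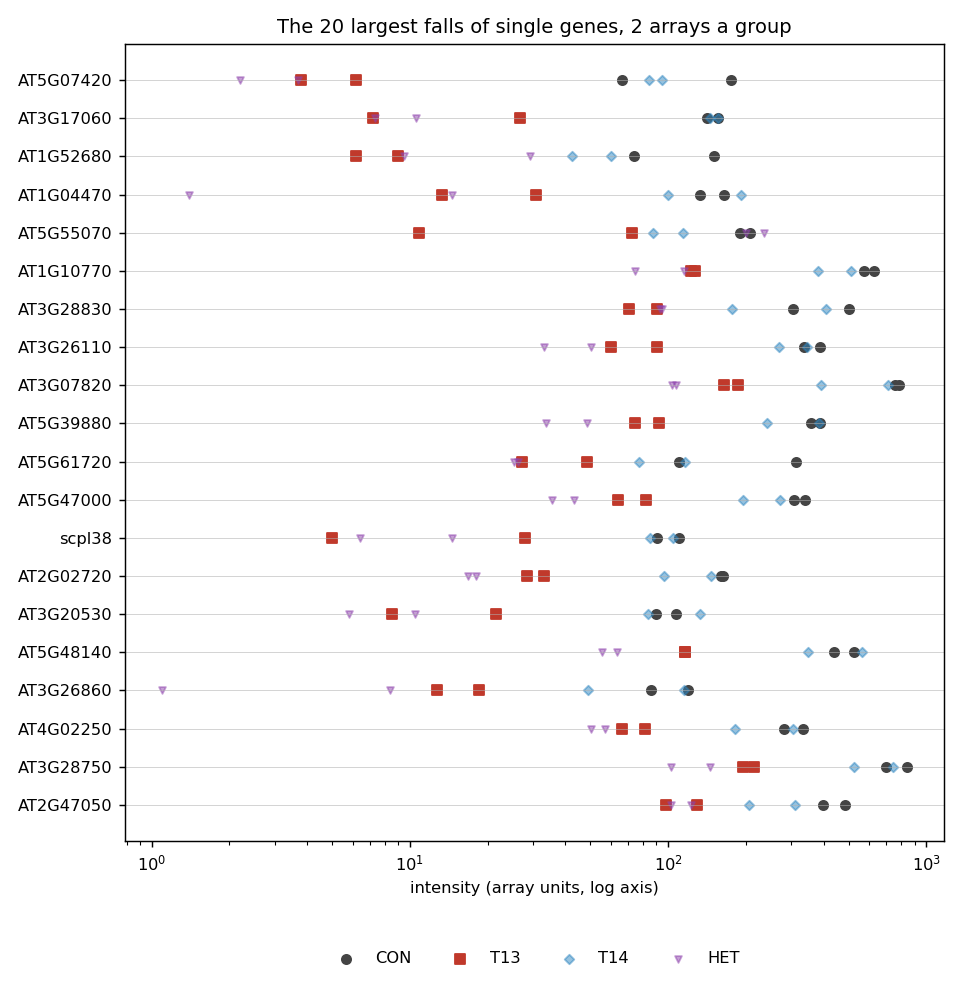
Intensity on each array (horizontal axis, log scale) of the 20 named genes with the largest falls in T13 (vertical axis), with 2 points a group and T14 and HET as smaller symbols. In all 20 both T13 arrays lie below both CON arrays, which the choice of called genes makes nearly certain. AT5G55070 is the gene whose HET arrays, at 234.3 and 200.2, lie with CON.

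The genes that fell were spread over all 5 chromosomes. On chromosome 3, which carries TCP14, 19 of 1657 kept named probe sets fell (1.15%), and on chromosome 5 there were 16 of 1961 (0.816%). On chromosomes 1, 2 and 4 the numbers were 8 of 2160 (0.3704%), 6 of 1210 (0.496%) and 5 of 1192 (0.4195%). These shares were not tested. AT3G03430, whose locus code is of chromosome 3, had no chromosome entry and was left out of these counts. Some members were near neighbours in the RefSeq gene order of assembly TAIR10.1. RALFL25 and RALFL26 lie next to each other, as do the pectinesterases AT5G07420 and AT5G07430. There were 2 protein-coding genes between AT3G28790 and AT3G28830, 4 between AT3G28750 and AT3G28790, and 2 between AT5G15110 and AT5G15140.

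The cell type lists reached few genes, because most markers had no probe set named here. Of 51 markers of mature pollen and the pollen tube, 9 were on a probe set named here, 4 of them kept. EXPB5 fell (1 of 4, with 0.585% called lower over all kept probe sets). ANX2, the receptor kinase that keeps the growing pollen tube intact, had 61.6 and 65.1 in CON and 8.6 and 16.8 in T13 and did not pass (log2 -1.48, SE 0.331, limma adjusted p = 0.112). The groups did not overlap, the value over the alternatives ran from -2.30 to -1.10, and it passed in 1 of 18. Both T13 values of ANX2 are near the low end of the arrays, so the size of its difference is not exact. The MADS-domain regulators of pollen maturation AGL65 and AGL66 had log2 differences of -0.16 and -0.10 (limma adjusted p = 0.924 and 0.96), with overlapping arrays: AGL65 read 90.9 and 48.9 in CON and 60.4 and 57.0 in T13. The median of the 4 was -0.80.

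Markers of the other tissues of the flower gave no call. AMS, a regulator of the tapetum, the layer that nourishes developing pollen, was the 1 kept marker of its list. It had 23.6 and 23.8 in CON against 45.3 and 47.4 in T13, a log2 difference of 0.65 that did not pass (limma adjusted p = 0.76), on arrays whose 40th percentiles were 36.4 to 41.4. For the ovule and gynoecium, SPT, needed for carpel fusion, read 79.5 and 70.9 in CON and 73.4 and 129.0 in T13. INO, of the outer integument of the ovule, read 71.5 and 92.7 against 111.5 and 72.2, and NGA1, of style development, 39.9 and 48.6 against 49.3 and 44.1. The groups overlapped in all 3 (log2 0.32, 0.12 and 0.06, limma adjusted p from 0.86 to 0.977). FER, a receptor kinase of the synergids and of most vegetative tissues, read 243.7 and 321.0 in CON and 301.9 and 251.6 in T13 (log2 -0.02, limma adjusted p = 0.99). For AGL65, AGL66, SPT, INO, NGA1 and FER the sign turned in at least 1 alternative. The floral organ identity and sperm cell lists had 0 kept markers.

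Word lists over gene symbols and synonyms covered the other functions, again with few genes each. Their counts stand beside 0.585% called lower over all kept probe sets and 0.6639% over those with 1 gene, so a single call in a list of this size is near the background. Of 44 kept genes named for the cell wall beyond pectin, 1 fell, EXPB5 (2.273%), and the list's median log2 difference was -0.11. Of its other members, GH9B11, a glycosyl hydrolase of the cellulase family, had 67.7 and 61.6 in CON and 13.2 and 20.3 in T13 (log2 -1.31, limma adjusted p = 0.26). Those T13 values are near the low end of the arrays, so that size is not exact. Of 67 genes of protein turnover, 1 fell, scpl38 (1.493%, median -0.02). Of 33 kept genes named as transcription factors 0 passed (median 0.13). AT1G35490, of the bZIP family, fell but is listed only by locus and was not among them. In that list AGL18, a MADS-domain gene expressed in pollen, had 84.0 and 75.2 against 41.8 and 34.8 (log2 -0.82, limma adjusted p = 0.338). Of 31 genes of stress and redox 0 passed (median -0.05), and the glutathione transferase GSTU20 stood at -1.07 on the log2 scale (limma adjusted p = 0.45).

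No member passed in the lists of the cytoskeleton (17 kept, median -0.10), transport across membranes (17, -0.04), photosynthesis and chloroplast (17, -0.02), small GTPases and membrane traffic (15, 0.10) and mitochondrial energy metabolism (13, -0.09). The same held for cell division and chromatin (7, 0.04), protein kinases (6, -0.01), calcium and calmodulin (6, 0.04), translation and ribosome (6, 0.17), hormone pathways (6, -0.09), lipids (5, 0.23), pectin (3, 0.07), protein phosphatases (2, 0.11) and names for pollen or anther (1, -0.13). Kinase and pectin genes listed only by locus are missed by such a word search, as the named falls above show. The lists also missed the falls of the actin-bundling PLIM2a, the calcium-binding AT3G03430, the mitochondrial AT5G55070 and the glycosyl hydrolase AT3G62710. A list without a call thus does not mean that its function held no fall. The search also takes in genes of other functions by their names. The protein kinase list held the metabolic enzymes PWD, PPDK and F2KP, and the protein phosphatase list held only F2KP and SBPASE. The medians of these lists therefore do not describe protein kinases or protein phosphatases. The members with the smallest p included TUB9, a beta-tubulin known from pollen, at 455.0 and 467.3 in CON and 323.5 and 281.1 in T13 (log2 -0.59, limma adjusted p = 0.727), and TUA1, an alpha-tubulin of pollen (log2 -0.46, limma adjusted p = 0.836). The linker histone HIS1-3 and the peptide gene CLE41, which signals in vascular tissue, did not pass either (log2 0.77 and 0.38, limma adjusted p = 0.658 and 0.836).

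The 1 gene that rose was AT5G01080, of a beta-galactosidase-related family, at 22.5 and 5.9 in CON and 88.5 and 191.3 in T13 (log2 2.34, SE 0.418, limma adjusted p = 0.0292). T14 read 12.9 and 9.3 and HET 22.3 and 7.8, so only the T13 arrays of the 8 were bright. The probe set thus passed the filter only through the T13 arrays that make it a rise. Its CON values are near the low end of the arrays and give no exact size of the rise. It passed in 11 of 19 alternatives and not without CON replicate 1, CON replicate 2, T13 replicate 2 or HET replicate 1 (log2 2.75, 1.93, 1.85 and 2.34, limma adjusted p = 0.0577, 0.239, 0.452 and 0.0614).

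The 10 next rises by p did not pass (limma adjusted p from 0.173 to 0.346) and are given as values. AT1G12010, an ACC oxidase, the enzyme of the last step of ethylene synthesis, had 8.5 and 4.6 in CON and 52.0 and 51.2 in T13 (log2 1.59), with 50.7 and 8.8 in T14 and 69.2 and 117.4 in HET. OCT1, an organic cation and carnitine transporter, had 106.2 and 59.8 against 339.7 and 139.9 (log2 1.29). NET1B, of the NETWORKED family of actin-binding proteins, had 107.1 and 83.9 against 196.8 and 201.1 (log2 0.95). In these 3 the T13 arrays lay above both CON arrays, widely apart from each other only in OCT1. AT5G47690, a homologue of the cohesin cofactor PDS5, had 61.6 and 56.1 against 103.6 and 112.6 (log2 0.73). AT1G23720, an extensin-like proline-rich protein, had 69.9 and 60.7 against 110.7 and 136.4 (log2 0.78). AT4G14820, a pentatricopeptide repeat protein, had 30.3 and 26.4 against 61.2 and 60.4 (log2 0.79), and T14 was as high, at 53.7 and 65.7. The receptor-like kinase AT5G35370 had 6.9 and 20.8 against 47.9 and 44.0 (log2 1.09), and it too passed the filter only through the T13 arrays. AT5G63135, AT4G33960 and AT5G16110, with no role given here, had log2 differences of 0.87, 0.84 and 0.84. None of the 10 was in a cell type list.

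**Figure D5:**
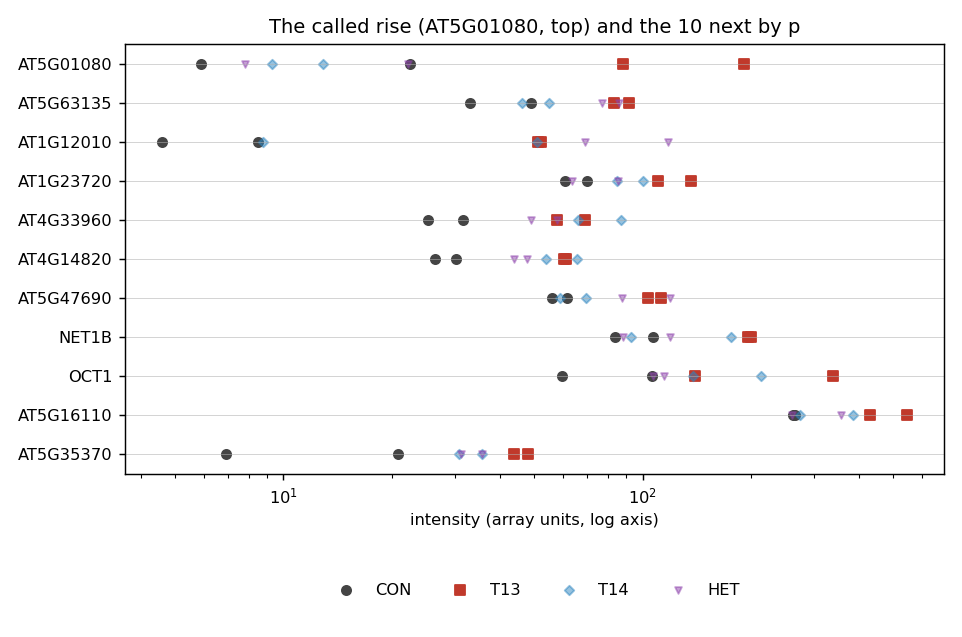
Intensity on each array (horizontal axis, log scale) of AT5G01080, the 1 gene that rose in T13, and of the 10 genes with the next smallest p among those higher on both T13 arrays than on both CON arrays (vertical axis), with 2 points a group. AT5G01080 reaches 88.5 and 191.3 in T13 and stays at or below 22.5 on the other 6 arrays.

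The difference between T13 and T14 was tested in the same fit. It called 75 of 15044 probe sets (0.499%), and 33 of the 55 genes that fell in T13 against CON were among them. The T13 arrays that chose the 55 are part of this comparison too, so the count describes them. The peroxidase AT5G47000 (log2 -1.47, limma adjusted p = 0.0217), the anther protein AT3G26110 (-1.83, 0.02), PLIM2a (-1.24, 0.0445), EXPB5 (-1.16, 0.025), LCR72 (-1.51, 0.0252) and RALFL25 (-1.26, 0.0449) were lower in T13 than in T14. RALFL26 did not pass (log2 -1.03, limma adjusted p = 0.0993), nor did AT1G52680 (-1.50, 0.193) or AT5G45880 (-1.40, 0.0525). The smallest differences from T14 were those of AT5G38760 (-0.47), AT5G15140 (-0.59) and AT59 (-0.77), with limma adjusted p from 0.776 to 0.999. The count of 75 fell to 0 with scanner background as a covariate, with 450 at an unadjusted p under 0.05, and was 4 in a fit of the compared groups alone.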

How the data were processed

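The deposited intensity of a probe set is linear and was used as it stood. How probes were summarised by the authors is not given in the labels. Array means, trimmed by 2% at either end, were 100. The table held 22810 probe sets, of which 64 controls were left out. Probe sets at or above the 40th percentile of their array on at least 2 arrays were kept (15044), and log2(intensity + 16) was fitted with group means over all 8 arrays in limma 3.58.1 (R 4.3.3; lmFit, eBayes with trend, 4 residual and 7.39 prior degrees of freedom). Benjamini-Hochberg adjustment ran over all kept probe sets, with calls at an adjusted p under 0.05. The added 16 understates the change of dim genes. Log2 differences and their SE are on that scale, with n = 2 arrays a group, and the number of arrays limits the precision. On simulated data for T13 against CON over 15044 probe sets, the fit called 42 of 100 true 2-fold changes, 93 of 100 true 4-fold changes and 6 unchanged probe sets. The planted changes were falls on the log2(intensity + 16) scale, placed only in brighter probe sets, with independent normal noise. Recovery of rises and of changes in dim probe sets was not simulated.

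Genes were named from the platform annotation, updated through RefSeq TAIR10.1: 13513 probe sets had 1 gene, 503 several and 8730 none here. All genes called with 1 gene could be named, with the 20 largest falls given by array, the 10 rises with the next smallest p, and up to 4 members of each list. The function and marker lists and these rules were chosen with earlier results of these data known. The lists were searched in symbols and synonyms only, since the reference used here held no descriptions, and roles come from background knowledge. Related gene copies may share probe signal, and labelling from the 3' end favours that end of a transcript. Alternatives were the pseudocount, the filter, quantile or median scaling, array weights, no trend, the compared groups alone, 2 covariates and each array left out.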

Additional observations from a re-analysis of the deposited data

Results flagged for a closer look

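For 33 of the 55 named genes that fell, T13 was also lower than T14 by a test of that difference in the limma fit (adjusted p under 0.05). The values below are log2 differences of T13 from T14, and both comparisons share the T13 arrays.

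For pectin enzymes and inhibitor family, T13 minus T14 was -2.33 for AT5G07420, -2.40 for AT3G17060, -1.70 for AT1G10770, -1.51 for AT3G07820, -1.53 for AT2G02720, -1.79 for AT5G48140, -1.49 for AT4G02250, -1.42 for AT3G05610, -1.30 for AT5G07430, -1.17 for AT3G01270, -1.28 for APPB1 and -1.48 for AT2G26450.
For other wall, sugar and oxidative enzymes, T13 minus T14 was -1.47 for AT5G47000, -1.40 for AT5G19580, -1.56 for AT3G62710 and -1.16 for EXPB5.
For secreted proteins of families known from pollen, anthers or the extracellular space, T13 minus T14 was -1.83 for AT3G26110 and -1.44 for AT5G26700.
For signal peptides, T13 minus T14 was -1.26 for RALFL25 and -1.51 for LCR72.
For kinases, actin and regulation, T13 minus T14 was -2.00 for AT3G20530, -1.24 for PLIM2a, -1.25 for AT3G61160 and -1.18 for AT3G54800.
For the carboxypeptidase-like protein, T13 minus T14 was -1.86 for scpl38.
For genes with no role given, T13 minus T14 was -2.07 for AT1G04470, -1.69 for AT5G39880, -1.54 for AT3G28750, -1.38 for AT3G01240, -1.47 for AT3G62640, -1.33 for AT5G50830, -1.57 for AT4G18395 and -1.41 for AT4G27580.
In the other direction, T13 was above T14 by 2.44 for AT5G01080, the gene that rose, and by 1.25 for TCP15, the gene that carries the T14 insertion.

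The GAPDH control ratio (5' over 3' probe set) was 0.345 on HET replicate 1, above the 0.086 and 0.129 of the CON arrays. HET replicate 1 entered the estimate of the spread, and without it 69 probe sets passed in T13 against CON.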

How the results depend on the processing

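For T13 against CON, 89 probe sets passed, and the count stayed within 1.5-fold under each planned setting except no filter on dim probe sets (46) and leaving out an array, where it ran from 16 to 109. For T13 against T14 (75), the count was 0 without the filter (1122 at an unadjusted p under 0.05) and 0 with scanner background as covariate (450 at an unadjusted p under 0.05), 4 in a fit of the compared groups alone, 38 with the GAPDH ratio as covariate, and 8 to 74 with an array left out. Fewer samples or a larger number of tests are part of these settings by construction, and the cause was not tested further. The sign turned only for values near 0 that did not pass: FER was 0.01 with quantile normalization, 0.06 with scanner background, 0.04 with the GAPDH ratio. NGA1 was -0.26 with the GAPDH ratio. Over the fits with an array left out, INO ran from -0.15 to 0.39, SPT from -0.03 to 0.67, TCP15 from -0.23 to 0.05, AGL65 from -0.52 to 0.20, AGL66 from -0.29 to 0.10, FER from -0.21 to 0.17 and NGA1 from -0.04 to 0.16. Of the 55 named falls, 29 passed in at least 15 alternatives and 9 in fewer than 10. Where an array was left out, the lone array of its group was assumed to vary like the other groups. Signal near the low end of the arrays limits the size of 18 of the 88 falls. No paired analysis was possible because replicates were numbered in accession order and no label pairs arrays across groups.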

Other observations

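The following genes were chosen after their values were seen, and none passed in T13 against CON. BAN, anthocyanidin reductase of the seed coat, read 62.3 and 90.2 in CON, 3.8 and 3.3 in T13, 115.8 and 9.3 in T14 and 1.7 and 2.2 in HET (log2 -2.22, limma adjusted p = 0.297), and it passed in 3 of 19 alternatives. Its T14 arrays lay far apart. AT5G47350, with no role given here, read 264.7 and 597.6 in CON, 61.7 and 22.5 in T13, and 738.4 and 101.0 in T14 (log2 -2.92, limma adjusted p = 0.13), and it also passed in 3 of 19. AT4G39110, which encodes the pollen tube receptor kinase BUPS1, read 98.3 and 90.3 in CON and 37.2 and 30.7 in T13 (log2 -1.14, limma adjusted p = 0.22), and it passed in 0 of 19. The T13 values of BAN and AT4G39110 are near the low end of the arrays, so the sizes of their differences are not exact.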
